A study of Mus musculus with 8 samples.

Results

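The comparison described here is that of colon epithelial cells from mice lacking sphingomyelin synthase 2 (SMS2 KO; gene Sgms2) with those of wild-type (WT) mice, both given dextran sulfate sodium (DSS). It uses 4 of the 8 arrays of the series, 2 from SMS2 KO and 2 from WT mice, all C57BL/6J and all given 3.5% DSS in the drinking water for 2 days. The other 4 arrays, 2 from untreated WT and 2 from untreated SMS2 KO mice, entered the fit to estimate the spread and are given where they bear on a gene. The labels call the paired arrays biological replicates but do not say whether an array holds 1 mouse or a pool, nor the age or sex of the mice, the part of Sgms2 that was removed or how widely it was removed. Total RNA was hybridised to Affymetrix gene arrays, and every value below is a log2 signal as deposited unless it is called a difference. A difference is always SMS2 KO minus WT with DSS, so a difference of 1 is a doubling.

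Sphingomyelin synthases move a phosphocholine headgroup from phosphatidylcholine to ceramide, which makes sphingomyelin and releases diacylglycerol. SMS1, encoded by Sgms1, does this mainly in the Golgi and SMS2 mainly at the plasma membrane, where sphingomyelin and cholesterol pack into ordered domains that hold many receptors. DSS is a sulfated polysaccharide that damages the colonic epithelium when drunk and is widely used to provoke colitis in mice; the first days of exposure come before the full inflammatory disease.

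The values came from 13003 genes, which remained of 19505 after the third with the lowest mean signal was left out. Array medians over all rows lay between 5.93 and 6.09, and background, taken as the 75th percentile of 5222 negative-control rows, lay between 6.00 and 6.24. All 25 tested markers of absorptive colonocytes were above background on every array. Their mean was 14.78 and 14.70 in WT and 14.84 and 14.69 in SMS2 KO arrays with DSS, so RNA of the labelled cell type was present. All 15 tested goblet cell markers were above background too. So were all 16 fibroblast genes on each array with DSS, and 14 and 12 of 14 smooth muscle genes in WT and 14 and 14 in KO. The markers therefore do not show that the samples held epithelium alone. The 2 WT arrays with DSS correlated at r = 0.982 over genes and the 2 SMS2 KO arrays with DSS at r = 0.981, and 491 and 755 genes differed by more than 1 within those pairs. Within the untreated pairs only 121 (WT) and 130 (SMS2 KO) genes did so. The fit shares 1 spread over all 4 groups, so its SEs and p-values may understate the spread of the arrays with DSS. The SMS2 KO replicate 2 array correlated with both WT arrays (0.982 and 0.984) no less than with its own replicate, whereas SMS2 KO replicate 1 correlated with them at 0.974 and 0.976. The mean of 18 exocrine pancreas genes was 12.40 in WT replicate 1 against 7.92 in WT replicate 2, and 8.73 and 8.04 in the SMS2 KO arrays. Of these genes 18 were above background in WT replicate 1 and 12 in SMS2 KO replicate 1, against 5 in each replicate 2 array with DSS. The 5 Y-linked genes tested averaged between 7.62 and 8.08 in the 4 arrays with DSS and between 4.39 and 4.57 in the 4 untreated arrays, so the genotypes were alike in them with DSS while the treatments were not. Only males carry Y-linked genes, so sex and treatment cannot be told apart wherever arrays with DSS are set beside untreated ones. With 2 arrays against 2, an exact permutation test of a single gene cannot give a two-sided p below 0.333, and the adjusted p-values below, from limma over all genes tested, measure only the spread between these arrays.

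Sgms2 itself read 11.27 and 10.90 in the WT arrays with DSS and 7.35 and 6.47 in the SMS2 KO arrays. The 2 genotypes were far apart, although both KO readings stayed above background. The difference was -4.18 ± 0.29 (SE, n = 2 per group), 18.1-fold lower, with an adjusted p of 3.08e-05. Without DSS it was -3.46 ± 0.29 (adjusted p 0.00137). The untreated arrays read 10.79 and 10.76 in WT and 7.30 and 7.33 in KO, so the signal separated the labelled genotypes in both treatments. The sources used here do not say whether the probes lie in the removed stretch. Sgms1, the other sphingomyelin synthase, read 8.63 and 8.25 in WT and 8.40 and 8.55 in KO (difference 0.03 ± 0.23, adjusted p 0.975), so its values overlapped. Samd8, which encodes a related protein that makes ceramide phosphoethanolamine, differed by -0.28 ± 0.25 (adjusted p 0.741).

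With DSS, 46 genes (0.354% of those tested) differed between the genotypes at an adjusted p under 0.05: 15 (0.115%) were higher and 31 (0.238%), Sgms2 included, were lower in SMS2 KO. At an unadjusted p under 0.05 there were 1323 genes (10.2%), 520 higher (4%) and 803 lower (6.18%). The largest differences were in the matricellular gene Ccn3 and in Hsd3b3, Aadac and Hsd3b2, which encode steroid- and drug-metabolizing enzymes, all higher in SMS2 KO. The lower genes included the ERK phosphatase gene Dusp5, the pseudokinase gene Trib1, Tifa, Ccl5 and Gbp2, the lipid droplet enzyme gene Hsd17b13 and 2 genes of the Hoxd cluster. Every one of the 46 differed by more than 1, and 24 (8 higher and 16 lower) by more than 2. In all 46 the 2 KO arrays did not overlap the 2 WT arrays. Over all genes tested, the KO arrays lay wholly below the WT arrays for 18.8% and wholly above for 16.1%.

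**Figure D1:**
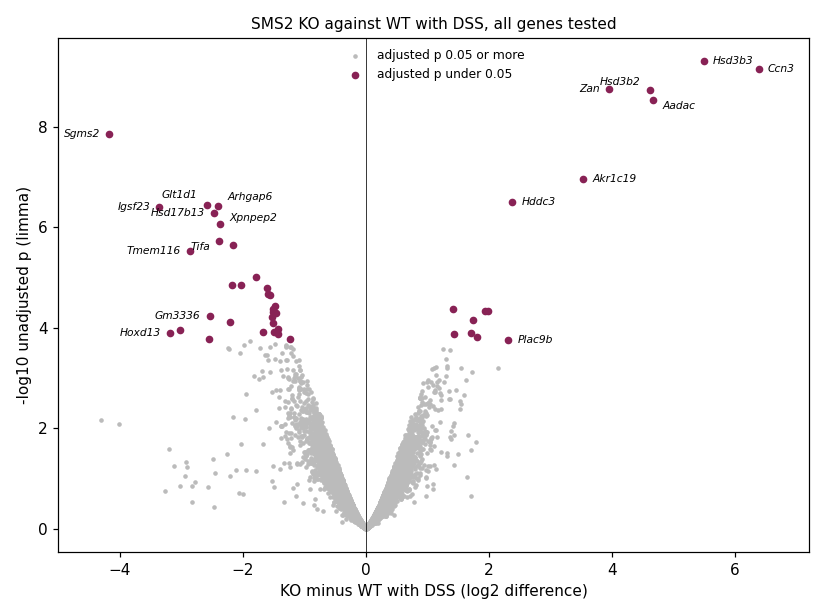
Each of the 13003 genes tested is 1 point, with its SMS2 KO minus WT log2 difference with DSS on the horizontal axis and the negative log10 of its unadjusted limma p on the vertical axis. The 46 genes with an adjusted p under 0.05 are the large dark points: 15 on the right, led by Ccn3 and Hsd3b3, and 31 on the left, led by Sgms2.

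The number of calls depended on single arrays. Leaving out 1 array at a time gave 24 calls without either WT untreated array, 33 without WT DSS replicate 1, 46 without WT DSS replicate 2, 43 without either KO untreated array, 31 without KO DSS replicate 1 and 215 without KO DSS replicate 2. Of the 46 genes, 24, 24, 24, 21, 40, 40, 24 and 40 passed again when WT untreated 1 and 2, WT DSS 1 and 2, KO untreated 1 and 2 and KO DSS 1 and 2 were left out in turn. In all, 17 passed every time. They were Ccn3, Hsd3b3, Aadac, Hsd3b2, Zan, Akr1c19 and Hddc3 among the higher genes and Sgms2, Igsf23, Tmem116, Glt1d1, Hsd17b13, Arhgap6, Tifa, Xpnpep2, Dusp5 and Ccl5 among the lower ones. The other 29 kept their direction but missed the threshold without at least 1 array, and the highest adjusted p this gave is printed for each as its leave-one-out maximum.

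Ccn3 encodes a secreted matricellular protein of the CCN family and stood among the goblet cell genes listed here. It read 8.29 and 9.48 in the WT arrays with DSS and 15.30 and 15.26 in the SMS2 KO arrays. The WT arrays with DSS were the low ones, since the untreated arrays read 14.62 and 14.36 in WT and 13.54 and 13.83 in KO. The difference with DSS was 6.39 ± 0.34, 84.0-fold, with an adjusted p of 4.5e-06. Of the other 14 goblet cell genes tested none passed; the mucin gene Muc2 read 18.28 and 18.54 in WT and 18.82 and 18.08 in KO (difference 0.04 ± 0.27). The family members Ccn1 (difference 0.17 ± 0.31) and Ccn2 (0.62 ± 0.29) did not pass either.

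Hsd3b3 and Hsd3b2 encode neighbouring members of the 3-beta-hydroxysteroid dehydrogenase family, which act on steroid substrates. Hsd3b3 read 11.13 and 10.29 in WT and 16.29 and 16.12 in SMS2 KO (difference 5.50 ± 0.28, 45.2-fold, adjusted p 4.5e-06). Hsd3b2 read 7.52 and 6.84 in WT and 11.93 and 11.66 in KO (difference 4.62 ± 0.27, 24.6-fold, adjusted p 6.04e-06). For both genes the KO arrays with DSS lay much nearer than the WT ones to the untreated arrays, which read 16.95 to 17.12 for Hsd3b3 and 12.57 to 12.84 for Hsd3b2, and the WT arrays with DSS were the ones set apart. Of the other family members, Hsd3b6 differed by 1.10 ± 0.42 (adjusted p 0.418) and Hsd3b7, which acts in bile acid synthesis, by -0.00 ± 0.25. No tested gene lies between Hsd3b2 and Hsd3b3. Members of such families can share probe sequence and the sources used here do not say how probes matching several members were treated.

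Akr1c19, an aldo-keto reductase of the family that reduces steroids and other carbonyls, read 7.01 and 7.54 in WT and 11.10 and 10.51 in SMS2 KO (difference 3.53 ± 0.30, 11.6-fold, adjusted p 0.000203). Its relatives Akr1c12, Akr1c13, Akr1c14 and Akr1c18 differed by -0.18, -0.29, -0.37 and -1.38, and none passed. Aadac encodes arylacetamide deacetylase, an esterase of the endoplasmic reticulum that hydrolyses drugs and lipids. It read 5.97 and 6.31 in WT and 10.43 and 11.19 in KO (difference 4.67 ± 0.28, adjusted p 7.57e-06), and since only 1 of the 2 WT arrays was above background no fold is given. These 2 genes showed the order of arrays seen in the Hsd3b pair, with the untreated arrays of both genotypes at 11.24 to 12.17 for Akr1c19 and at 10.99 to 11.61 for Aadac. Zan, which encodes the sperm-egg adhesion protein zonadhesin, was under background in both WT arrays (4.72 and 4.95) and read 8.67 and 8.90 in KO. It was at least 6.35-fold higher, a bound taken against background, with an adjusted p of 6.04e-06.

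Cyp2d26, a cytochrome P450, read 10.25 and 9.83 in WT and 11.63 and 11.93 in SMS2 KO (difference 1.74 ± 0.29, adjusted p 0.0291, leave-one-out maximum 0.145). The other Cyp2d genes tested lay on the other side of 0 without passing: Cyp2d9 at -0.86, Cyp2d22 at -0.83, Cyp2d10 at -0.73 and Cyp2d34 at -0.67. Gsta4, a glutathione S-transferase that conjugates products of lipid peroxidation, read 11.72 and 11.06 in WT and 12.84 and 13.54 in KO (1.80 ± 0.32, adjusted p 0.0458, maximum 0.211). Fah, the last enzyme of tyrosine breakdown, read 7.98 and 7.58 in WT and 9.85 and 9.59 in KO (1.94 ± 0.30, adjusted p 0.0226, maximum 0.125). In these 3 genes the genotypes were separated but missed the threshold in 5 or 6 of the 8 fits with 1 array left out. Hddc3, a phosphohydrolase of the HD-domain family, read 7.04 and 6.87 in WT and 9.23 and 9.45 in KO (2.38 ± 0.22, adjusted p 0.000465) and passed in each of them.

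The remaining higher genes had varied roles. L1cam, a neural cell adhesion molecule, differed by 1.72 ± 0.30 (adjusted p 0.0418, leave-one-out maximum 0.197). Hpse, heparanase, which cleaves heparan sulfate, differed by 1.43 ± 0.25 (adjusted p 0.0423, maximum 0.199), and the zinc finger gene Zfp605, with 1 of its 2 WT arrays under background, by 1.99 ± 0.31 (adjusted p 0.0226, maximum 0.143). Each of the 3 was lost without an array of its own comparison. Serpina1a, an alpha-1 antitrypsin gene, was under background in WT (5.64 and 5.88) and read 7.15 and 7.21 in KO, at least 2.08-fold higher (adjusted p 0.0226, maximum 0.123). Its relatives Serpina1b, Serpina1c, Serpina1d and Serpina1e were left out for low signal and not tested. How probes matching several of these genes were treated is not stated in the sources used here. Plac9b, which encodes a small secreted protein, read 8.05 and 6.49 in WT and 9.86 and 9.31 in KO (2.32 ± 0.42, adjusted p 0.0491, maximum 0.252). Its near-identical copy Plac9a differed by 2.15 ± 0.46 and did not pass (adjusted p 0.103), so the pair's values are uncertain as to which copy they read.

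**Figure D2:**
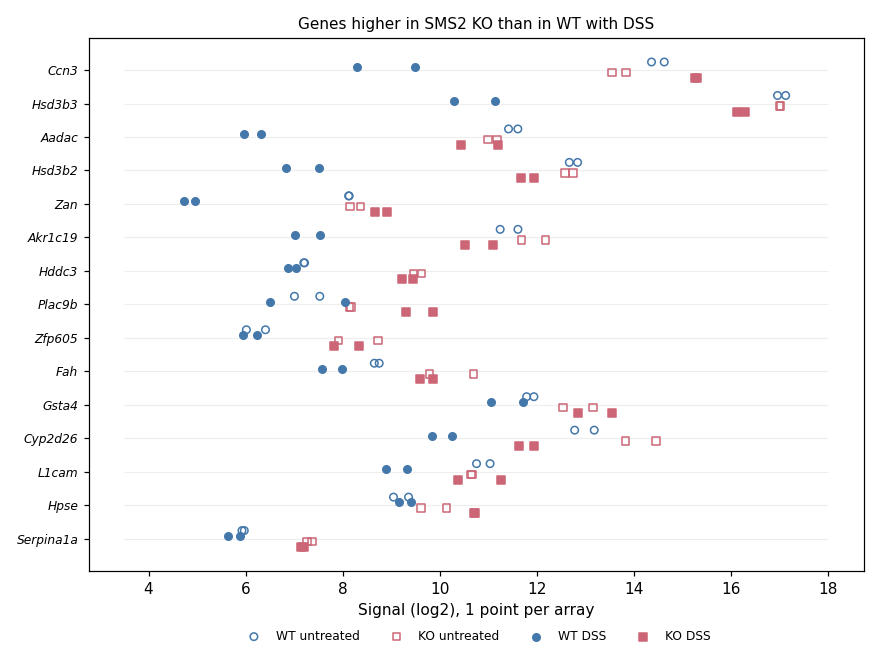
The log2 signal of each of the 15 genes higher in SMS2 KO with DSS is plotted on the horizontal axis, 1 point per array, with circles for WT, squares for SMS2 KO, filled for DSS and open for untreated. For Ccn3, Hsd3b3, Aadac, Hsd3b2, Zan and Akr1c19 the filled circles (WT with DSS) stand alone on the left, while for Hddc3, Zfp605 and Serpina1a all squares stand to the right of all circles.

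The windows upstream of 4 called genes on the chromosome of Sgms2 are shown because their genes differed in opposite directions: Hsd3b2 and Hsd3b3 were higher, Tifa and Gbp2 lower. They are RefSeq sequences of the GRCm38.p6 build, from 250 bases before to 50 bases after a transcript start, on the gene's own strand, 5′ to 3′, with matches to the searched motifs in capitals. They lie at chr3:98724494-98724793 (Hsd3b2, minus strand), chr3:98763079-98763378 (Hsd3b3, minus), chr3:127790407-127790706 (Tifa, plus) and chr3:142620413-142620712 (Gbp2, plus).
Hsd3b2: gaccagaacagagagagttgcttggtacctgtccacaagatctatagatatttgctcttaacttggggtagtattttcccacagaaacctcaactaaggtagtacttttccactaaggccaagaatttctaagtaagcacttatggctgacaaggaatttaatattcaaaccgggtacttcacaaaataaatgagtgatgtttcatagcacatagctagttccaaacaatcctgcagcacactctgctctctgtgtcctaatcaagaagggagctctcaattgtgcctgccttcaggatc
Hsd3b3: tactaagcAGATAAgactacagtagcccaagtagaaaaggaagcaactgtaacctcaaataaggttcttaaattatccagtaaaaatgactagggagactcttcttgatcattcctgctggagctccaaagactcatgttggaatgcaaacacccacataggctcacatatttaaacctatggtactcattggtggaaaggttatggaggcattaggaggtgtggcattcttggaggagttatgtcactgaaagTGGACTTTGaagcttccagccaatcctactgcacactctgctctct
Tifa: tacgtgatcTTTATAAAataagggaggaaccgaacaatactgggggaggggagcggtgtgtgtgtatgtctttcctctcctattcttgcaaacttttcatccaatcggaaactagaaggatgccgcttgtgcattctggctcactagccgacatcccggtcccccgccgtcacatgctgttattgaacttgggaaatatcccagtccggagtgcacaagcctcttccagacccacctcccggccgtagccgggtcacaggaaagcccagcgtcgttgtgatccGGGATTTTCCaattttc
Gbp2: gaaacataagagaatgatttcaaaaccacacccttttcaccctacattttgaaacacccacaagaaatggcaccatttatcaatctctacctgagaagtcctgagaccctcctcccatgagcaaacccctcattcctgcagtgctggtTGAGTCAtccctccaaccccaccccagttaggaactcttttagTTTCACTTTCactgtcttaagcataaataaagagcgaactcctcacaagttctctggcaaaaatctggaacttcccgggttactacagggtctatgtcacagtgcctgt

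A window was matched for 40 of the 46 genes, 13 of the higher and 27 of the lower ones, and 10 of them have several windows, for different transcript starts. Hsd3b3 and Tifa have another window each, not shown. That of Hsd3b3, 98.7% identical to the one shown, held the same words, and that of Tifa held no match to any word searched. The shown Hsd3b3 window held the HNF4 word CAAAGTCCA, found on either strand in 0.475% of all 32851 windows, and the GATA word AGATAA (11.2%). The Hsd3b2 window held no match to the words searched. Aligned end to end, it was 50.7% identical to the Hsd3b3 window, where windows of unrelated higher genes gave 49.1% to 51.7%. Such an alignment cannot show likeness between stretches that lie at different distances from the start. Both windows held the stretch gcacactctgctctct, at the very end in Hsd3b3 and further from the end in Hsd3b2. The Tifa window shown held the NF-kB word (GGGA, any base, then TTTCC; 0.411%) and 2 overlapping matches to the TATA word TATAAA (13.6%), 1 on each strand. The Gbp2 window held the AP-1 word TGANTCA (7.81%) and the interferon-response word (GAAA, any 2 bases, then GAAA; 3.44%). Counted by gene, with a match in any of its windows, the NF-kB word was in 0 of 13 higher and 1 of 27 lower genes, beside 0.466% of all 27025 genes with a window. By the same count the interferon-response word was in 0 and 2 (Gbp2 and Arhgap6; 3.99% of all genes), the AP-1 word in 1 and 3 (8.97%), and the CRE word TGACGTCA in 0 and 0 (2.03%). The CDX word TTTATNG was in 0 higher and 7 lower genes (12.5% of all genes); genes with more windows have more chances to hold a word. Such a match is a stretch of letters and not evidence of binding.

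Dusp5, a nuclear phosphatase that inactivates ERK, read 15.12 and 14.75 in WT and 12.62 and 12.92 in SMS2 KO (difference -2.16 ± 0.25, 4.48-fold lower, adjusted p 0.00193). The untreated arrays read 12.90 to 13.26 for Dusp5, so the WT arrays with DSS were the high ones. Trib1, a pseudokinase scaffold for protein degradation, read 14.27 and 13.64 in WT and 11.59 and 11.97 in KO (-2.18 ± 0.30, adjusted p 0.00974, leave-one-out maximum 0.0775). Plk3, a stress-responsive polo-like kinase, read 11.88 and 11.85 in WT and 10.67 and 10.21 in KO (-1.42 ± 0.24, adjusted p 0.0393, maximum 0.150). For both the KO arrays were below every other array. The ERK phosphatase Dusp6 (-0.62 ± 0.32), its relatives Dusp4 (-0.92 ± 0.32) and Dusp1 (-0.88 ± 0.23), and Plk2 (-1.02 ± 0.31) did not pass. Ifrd1, a stress-induced transcriptional co-regulator, read 12.73 and 12.85 in WT and 10.87 and 11.35 in KO (-1.68 ± 0.29, adjusted p 0.0418, maximum 0.199).

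Arhgap6, Mid1 and Rnd3 were also lower. Arhgap6 read 9.70 and 9.78 in WT and 7.21 and 7.47 in SMS2 KO (difference -2.40 ± 0.23, 5.28-fold lower, adjusted p 0.000465). Mid1, a microtubule-bound ubiquitin ligase encoded close to Arhgap6, read 11.33 and 11.77 in WT and 10.10 and 9.99 in KO (-1.51 ± 0.23, adjusted p 0.0226, leave-one-out maximum 0.102). In both genes only the WT arrays with DSS stood apart from the other 6 arrays. Rnd3 read 12.59 and 12.54 in WT and 11.05 and 10.95 in KO (-1.56 ± 0.23, adjusted p 0.013, maximum 0.0775).

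Tifa encodes an adaptor that assembles in response to bacterial sugars and activates TRAF6, upstream of NF-kB. It read 11.90 and 12.13 in WT and 9.64 and 9.60 in SMS2 KO (difference -2.39 ± 0.27, 5.24-fold lower, adjusted p 0.00171). Ccl5, a chemokine that attracts T cells and is also made by cytotoxic lymphocytes, read 7.42 and 7.77 in WT and was under background in KO (5.93 and 5.68), at least 2.76-fold lower (adjusted p 0.00761). Gbp2, an interferon-induced guanylate-binding protein, read 9.03 and 9.32 in WT and 7.72 and 7.45 in KO (-1.59 ± 0.23, adjusted p 0.013, leave-one-out maximum 0.0668). For Ccl5 and Gbp2 the WT arrays with DSS were above all other arrays, and the untreated arrays read 5.13 to 5.72 and 7.05 to 7.49. The 7 T cell and cytotoxic lymphocyte genes averaged 6.45 and 7.07 in WT and 6.12 and 5.96 in KO with DSS, 7 of 7 were lower on average in KO, and 5 of 7 were above background in each WT array against 2 of 7 in each KO array. The list median of -0.43 became -0.85 without WT DSS replicate 1 and -0.20 without WT DSS replicate 2. In that list Gzma (-2.05 ± 0.40, adjusted p 0.0665) and Gzmb (-1.55 ± 0.34, adjusted p 0.11) came nearest to passing. Their part in the Ccl5 and Gbp2 differences was not tested, and in such bulk samples fewer cells of a type and less RNA per cell cannot be told apart. The other guanylate-binding protein genes tested, Gbp3 (-0.24 ± 0.32), Gbp4 (-0.94 ± 0.25) and Gbp7 (-0.46 ± 0.27), did not pass.

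Hsd17b13, a lipid droplet enzyme of the 17-beta-hydroxysteroid dehydrogenase family, read 14.60 and 14.59 in WT and 11.99 and 12.25 in SMS2 KO (difference -2.47 ± 0.24, 5.55-fold lower, adjusted p 0.000574). Its neighbour and relative Hsd17b11 differed by 0.23 ± 0.23. The untreated arrays read 11.83 to 12.34 for Hsd17b13, level with the KO arrays with DSS. Apob, the scaffold of chylomicrons and very low density lipoproteins, read 9.99 and 10.54 in WT and 8.80 and 8.75 in KO (-1.49 ± 0.26, adjusted p 0.0418, leave-one-out maximum 0.183). Tat, the first enzyme of tyrosine breakdown, averaged 11.07 in WT and 9.61 in KO, without overlap (-1.46 ± 0.23, adjusted p 0.0227, maximum 0.123), the opposite direction to Fah. Rdh16, a retinol dehydrogenase, was under background in KO and at least 1.82-fold lower (adjusted p 0.0423, maximum 0.195).

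Hoxd13 and Hoxd11, transcription factors that pattern the hindgut and remain active in the distal colon, were lower. Hoxd13 read 11.98 and 12.34 in WT and 7.78 and 10.17 in SMS2 KO (difference -3.19 ± 0.56, adjusted p 0.0418), and the KO replicates differed from each other by more than 2 log2 units. Hoxd11 read 9.97 and 9.40 in WT and 7.0 and 7.95 in KO (-2.21 ± 0.37, adjusted p 0.0302). The untreated arrays read 8.98 to 9.44 for Hoxd13 and 7.04 to 7.87 for Hoxd11, below both WT arrays with DSS. With 1 array left out the adjusted p reached 0.191 and 0.186, and the Hoxd13 difference ranged from -4.38 to -1.99. Their cluster neighbours Hoxd12 (-0.42 ± 0.28), Hoxd10 (-0.25 ± 0.24) and Hoxd8 (0.44 ± 0.26) did not pass. Hoxb13, another distal colon gene, read 11.77 and 11.52 in WT and 10.17 and 12.40 in KO, so its KO arrays fell on either side of the WT ones. Of 9 distal colon genes tested, Hoxd13 was the only one to pass, and the list median of -0.36 became 0.15 without KO DSS replicate 1. Of 13 proximal colon genes, Hsd3b2 and Hsd3b3 passed and the others lay between -0.82 and 0.92. The sources used here do not say which stretch of colon each sample came from, and its part in these differences was not tested.

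The strongest of the other lower genes was Igsf23, an immunoglobulin superfamily member. It read 9.53 and 9.75 in WT and 5.89 and 6.67 in SMS2 KO (difference -3.36 ± 0.32, adjusted p 0.000465); 1 of the 2 KO arrays was under background, so no fold is given. Tmem116, a predicted membrane protein, read 9.38 and 8.20 in WT and was under background in KO, at least 6.33-fold lower (adjusted p 0.00238). Glt1d1, a glycosyltransferase-domain gene, read 8.16 and 8.04 in WT and was under background in KO, at least 3.91-fold lower (adjusted p 0.000465). Igsf23 and Tmem116 were high in the WT arrays with DSS and nowhere else, while Glt1d1 was low in all 4 KO arrays. Xpnpep2, a membrane-bound aminopeptidase that cleaves bradykinin, was at least 2.85-fold lower (adjusted p 0.000871), and the acid phosphatase gene Acpp at least 2.75-fold lower (adjusted p 0.0491, leave-one-out maximum 0.252). Dzip1, a ciliogenesis gene, differed by -2.03 ± 0.28 (adjusted p 0.00974, maximum 0.0652). Xrcc3, which acts in homologous recombination, differed by -1.61 ± 0.22 (adjusted p 0.0106, maximum 0.059), and the splicing regulator Rbm5 by -1.52 ± 0.25 (adjusted p 0.0255, maximum 0.123). Prrg4, a vitamin K-dependent membrane protein with 1 of its 2 KO arrays under background, differed by -1.51 ± 0.24 (adjusted p 0.0227, maximum 0.109) and Lars2, the mitochondrial leucyl-tRNA synthetase, by -1.48 ± 0.23 (adjusted p 0.0213, maximum 0.122). The serine protease gene Tmprss13 was at least 1.33-fold lower (adjusted p 0.0302, maximum 0.150). The kinase gene Nek5 was near background in WT and under it in KO, which allows no fold (adjusted p 0.0491, maximum 0.199). The remaining 2 are predicted genes, 4833420G17Rik (-3.03 ± 0.52, adjusted p 0.0401, maximum 0.169) and Gm3336 (-2.54 ± 0.41, adjusted p 0.0255, maximum 0.157).

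**Figure D3:**
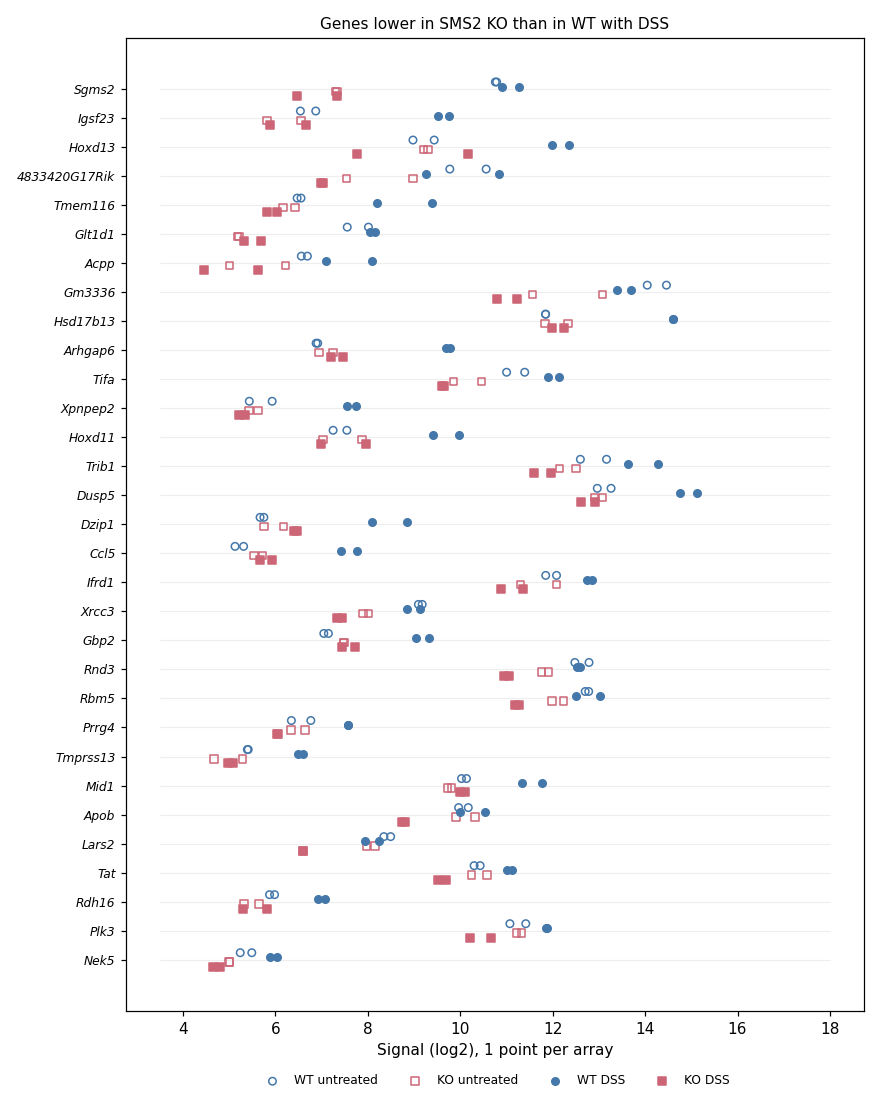
The log2 signal of each of the 31 genes lower in SMS2 KO with DSS is plotted on the horizontal axis, 1 point per array, with circles for WT, squares for SMS2 KO, filled for DSS and open for untreated. For Igsf23, Hoxd13, Hsd17b13, Arhgap6, Dusp5, Ccl5 and Gbp2 the filled circles (WT with DSS) stand alone on the right, while for Sgms2 and Glt1d1 both KO groups stand to the left of both WT groups.

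Setting the 4 groups side by side showed which arrays set the called genes apart. In 36 of the 46 (12 higher, 24 lower) both WT arrays with DSS lay outside the range of the other 6 arrays, which held for 12.8% of all genes tested. In 17 of these (6 higher, 11 lower) that was the only such separation. Both KO arrays with DSS lay outside the other 6 in 19 genes (4 higher, 15 lower), against 8.91% of all genes. All 4 KO arrays were separated from all 4 WT arrays in 22 genes (8 higher, 14 lower), against 4.78% of all genes. Since the genes were called on the WT and KO arrays with DSS, the share above the background of all genes is partly fixed by that choice. In WT mice the signal with DSS minus without was -6.33 for Hsd3b3, -5.60 for Ccn3, -5.57 for Hsd3b2, -5.37 for Aadac, -4.15 for Akr1c19 and -3.29 for Zan, each with an adjusted p of 2.86e-05 or less. In SMS2 KO mice the same 6 differences were -0.80, 1.59, -0.86, -0.27, -1.12 and 0.53, and none passed. These comparisons share the arrays with DSS with the genotype comparison. They also set arrays with Y-linked signal against arrays without it, so treatment and sex cannot be told apart in them.

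Without DSS, 51 genes (0.392%) differed between the genotypes, and 5 of the 46 were among them in the same direction: Sgms2, Glt1d1 (-2.58 ± 0.25, adjusted p 0.00168), Hddc3 (2.33 ± 0.22, adjusted p 0.00168), Serpina1a (1.36 ± 0.22, adjusted p 0.0292) and Zfp605 (2.11 ± 0.31, adjusted p 0.0203). The difference between the genotype differences with and without DSS was itself tested as an interaction, which 10 genes passed (0.0769% of all). Of them 9, Ccn3, Hsd3b3, Aadac, Hsd3b2, Zan, Akr1c19, Hsd17b13, Arhgap6 and Ccl5, were among the 46. The tenth was Mme, the endopeptidase neprilysin, which differed by -0.52 ± 0.47 with DSS and by 4.10 ± 0.47 without. The Y-linked genes differed between treated and untreated arrays in both genotypes. Treatment, sex and whatever else separates those mice therefore cannot be told apart in this interaction.

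Genes near a targeted locus are inherited together with it, so the neighbourhood of Sgms2 was counted. On its chromosome 647 other genes were tested and 5 were called (0.773%), beside 0.354% of all genes tested. Aadac, Hsd3b2 and Hsd3b3 were higher, and Tifa and Gbp2 were lower. Among the 100 tested genes nearest to Sgms2, 2 were called (2%, beside the same 0.354%), Tifa at 14 and Gbp2 at 32 tested genes away. Among the nearest 10 on each side none was called. Tifa also read lower in KO without DSS (-1.04 ± 0.27) without passing (adjusted p 0.18), whereas Gbp2 differed by 0.38 ± 0.23 there. Sequence differences around Sgms2 were not tested.

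**Figure D4:**
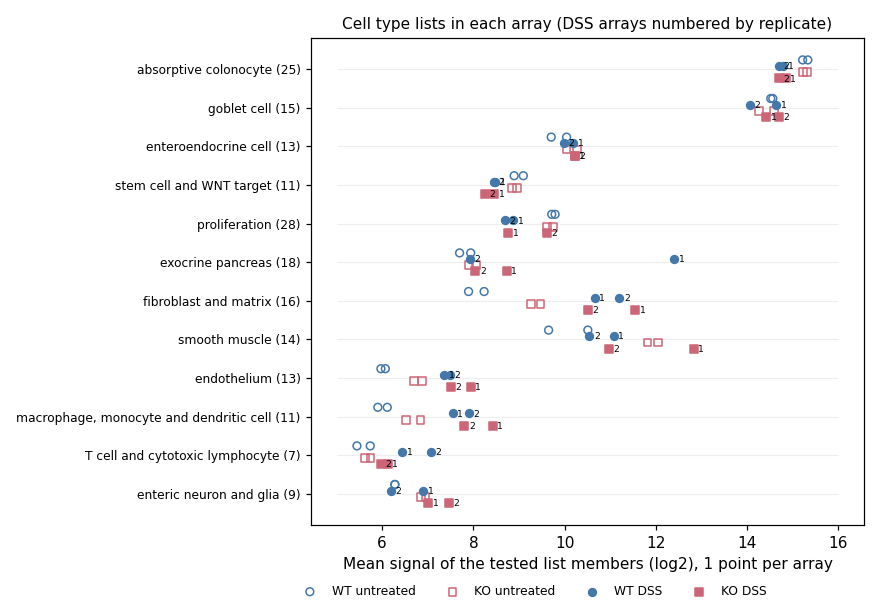
The mean log2 signal of the tested members of 12 cell type lists is plotted on the horizontal axis, 1 point per array, with circles for WT, squares for SMS2 KO, filled for DSS and open for untreated, and the replicate number beside each DSS point. The absorptive colonocyte list is level across the DSS arrays. WT DSS replicate 1 stands far to the right in the exocrine pancreas list, with SMS2 KO DSS replicate 1 next. SMS2 KO DSS replicate 1 is highest in the smooth muscle list.

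Marker lists of cell types were described without a test. Among 25 absorptive colonocyte genes none passed and the median difference was -0.07, beside -0.02 over all genes tested; the carbonic anhydrase gene Car1 read 19.53 and 19.49 in WT and 19.42 and 19.36 in KO. No member passed among 13 enteroendocrine, 7 tuft cell or 11 stem cell and WNT target genes, whose medians were 0.09, 0.21 and -0.10. Of 28 proliferation genes none passed, 24 lay above 0 and the median was 0.35. Their mean was 8.87 and 8.69 in WT and 8.77 and 9.62 in KO, so only KO replicate 2 was above both WT arrays in this mean. For Cdc20, an activator of the anaphase-promoting complex, both KO arrays (7.02 and 8.37) were above the WT arrays (6.40 and 6.24), with a difference of 1.38 ± 0.36 (adjusted p 0.201).

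Among lists of cells outside the epithelium no gene passed, although some lists leaned one way. All 14 smooth muscle genes lay above 0 with a median of 1.0, and their mean was 11.07 and 10.54 in WT and 12.83 and 10.97 in KO. With DSS that lean rested on KO DSS replicate 1, without which the median was 0.18. In the untreated arrays the smooth muscle mean was also higher in KO (11.81 and 12.05) than in WT (9.65 and 10.51). So were the untreated means of the other lists described here, apart from the exocrine pancreas list, in which the genotypes overlapped. The median of 16 fibroblast genes was 0.13 and became -0.38 without the same array and -0.08 without WT DSS replicate 1. All 9 enteric neuron and glia genes lay above 0 with a median of 0.73, which lay between 0.39 and 1.03 with 1 DSS array left out, and means of 6.90 and 6.19 in WT and 7.0 and 7.47 in KO; the glial filament gene Gfap differed by 1.14 ± 0.26 (adjusted p 0.12). Of 13 endothelial genes 12 lay above 0 (median 0.31, and 0.13 without KO DSS replicate 1), with means of 7.36 and 7.49 in WT and 7.94 and 7.51 in KO. Of 11 macrophage and dendritic cell genes 8 lay above 0 (median 0.43, and 0.06 without that array), with means of 7.55 and 7.90 in WT and 8.42 and 7.80 in KO. The exocrine pancreas list had 17 of 18 genes below 0 and a median of -1.66, which became 0.41 without WT DSS replicate 1; the amylase gene Amy2a5 read 15.17 and 5.55 in WT and 9.61 and 4.59 in KO. When the pancreas list mean was entered as a covariate 36 genes passed, 28 of them among the 46.

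Of the pathway lists, the immediate early genes leaned lowest. None of 20 passed, all 20 lay below 0, beside 52.4% of all genes tested, and the median was -0.58. At an unadjusted p under 0.05, 11 were lower, beside 6.18% of all genes. Fosb, a partner in AP-1, read 16.49 and 16.57 in WT and 15.53 and 15.32 in SMS2 KO (difference -1.10 ± 0.25, adjusted p 0.125). The phosphatase gene Dusp1 read 18.35 and 18.44 in WT and 17.33 and 17.70 in KO (adjusted p 0.216). The KO arrays lay wholly below the WT arrays in both genes, as in 18.8% of all genes tested, but neither passed. Over all scalings and array subsets tried, that list median stayed between -0.72 and -0.49.

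Of 26 interferon and antigen presentation genes, Gbp2 alone passed and 24 lay below 0, beside 52.4% of all genes tested. The median was -0.48 (between -0.58 and -0.42 over the alternatives). H2-Ab1, a class II beta chain, read 11.51 and 11.61 in WT and 10.46 and 10.54 in SMS2 KO (-1.06 ± 0.34, adjusted p 0.319). Of 24 NF-kB target, cytokine and chemokine genes, Ccl5 alone passed and the median was -0.23. At an unadjusted p under 0.05, 7 were lower and 2 higher, beside 6.18% and 4% of all genes. The epithelial alarmin gene Il33 read 7.73 and 7.75 in WT and 6.30 and 6.75 in KO (-1.21 ± 0.24, adjusted p 0.0665), and the B cell chemokine gene Cxcl13 read 11.70 and 11.87 in WT and 13.24 and 12.63 in KO (1.15 ± 0.28, adjusted p 0.149). Of 21 NF-kB signalling and Toll-like receptor genes Tifa and Trib1 passed and the median was -0.12. The lists thus held 1, 1 and 2 called genes, all lower, beside 0.238% of all genes tested called lower. As the lists were chosen with earlier results of these data known, these counts are no independent result.

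Of 36 sphingolipid genes other than Sgms2 none passed and the median was -0.09. The lowest were 2 ceramidase genes, whose products release sphingosine from ceramide: Asah1 read 15.03 and 15.04 in WT and 13.57 and 14.19 in SMS2 KO (-1.16 ± 0.27, adjusted p 0.133), and Asah2 read 8.80 and 9.07 in WT and 7.75 and 7.99 in KO (-1.07 ± 0.25, adjusted p 0.133). Ugcg, the glucosylceramide synthase that competes for ceramide, differed by -0.77 ± 0.24 (adjusted p 0.3). The KO arrays lay wholly below the WT arrays in all 3, as in 18.8% of all genes tested. These 3 had the smallest p-values of the list, yet none met the threshold.

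The enzyme lists, chosen with earlier results known, held called genes around medians near 0. Over all genes tested, 0.115% were called higher and 0.238% lower. Of 29 steroid and bile acid genes, 3 were higher (Hsd3b2, Hsd3b3 and Akr1c19) and 1 lower (Hsd17b13), with a median of -0.00. Of 44 xenobiotic metabolism genes, 3 were higher (Aadac, Cyp2d26 and Gsta4), while 23 lay above and 21 below 0 (median 0.04). Of 32 lipid metabolism genes Apob alone passed, and 18 lay above 0 (median 0.03). No gene passed among 27 ion and water transport genes (median -0.08), although the water channel gene Aqp4 read 14.16 and 14.63 in WT and 15.57 and 15.94 in KO (1.36 ± 0.26, adjusted p 0.0584). None passed among 28 tight junction and adhesion genes (median -0.12), 22 unfolded protein response genes (-0.19) or 15 metallothionein and zinc genes (0.01).

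A further pair of lists leaned towards lower values without a called gene. Of 14 circadian clock genes 13 lay below 0 (median -0.34), beside 52.4% of all genes tested. Bhlhe40, a transcriptional repressor of the clock, read 16.64 and 16.55 in WT and 15.38 and 15.68 in SMS2 KO (-1.06 ± 0.23, adjusted p 0.104), Per1 differed by -1.04 ± 0.23 (adjusted p 0.12) and Arntl by -1.06 ± 0.25 (adjusted p 0.133). Of 24 apoptosis and cell death genes 17 lay below 0 (median -0.32), with the BH3-only genes Pmaip1 (-1.36 ± 0.27, adjusted p 0.0659) and Bcl2l11 (-1.16 ± 0.26, adjusted p 0.116) nearest to passing.

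**Figure D5:**
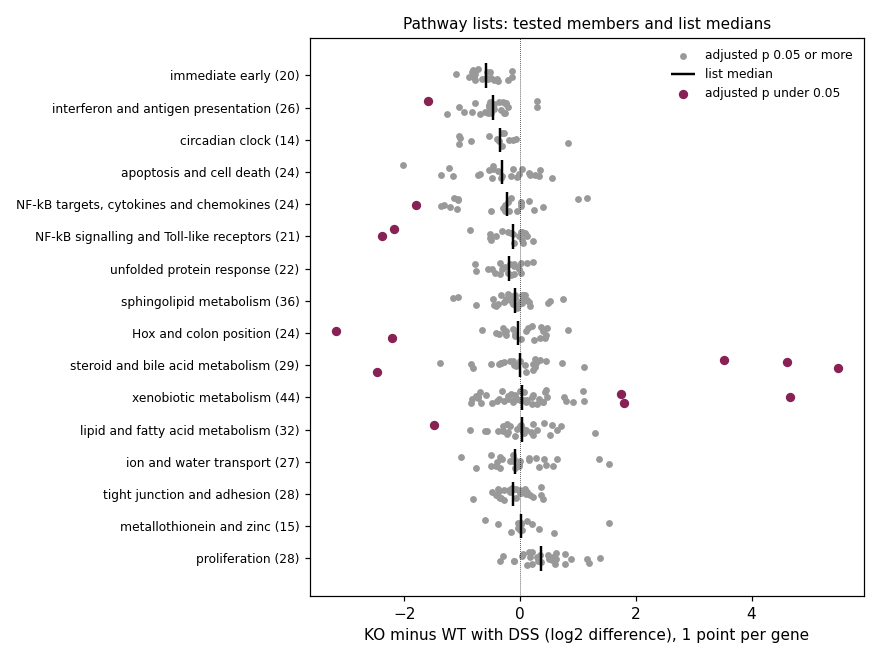
The SMS2 KO minus WT log2 difference with DSS is plotted on the horizontal axis for each tested member of 16 lists, 1 point per gene, with a bar at the list median and large dark points for genes with an adjusted p under 0.05. The immediate early list (median -0.58) lies wholly below 0, while the steroid list holds 3 called genes far to the right and 1 to the left around a median of -0.00.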

How the data were processed

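RNA from 8 samples was measured on Affymetrix gene arrays, 2 per group of genotype and treatment. The deposited log2 values were made by the authors with Affymetrix Expression Console, per the submitters' processing notes; its version, the normalization and the genome build were all not given in the sources used here. Of 28846 rows, 6640 were controls, 2634 had no symbol or several and 19572 had 1 symbol in the platform annotation. The highest-mean row per gene was kept (19505 genes, 55 of them with several rows) and the lowest 33.3% by mean (below 5.15) left out. Symbols were updated by Entrez identifier (19505 matched).

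Models with 4 group means over 8 arrays (4 residual degrees of freedom) were fitted with limma 3.58.1 in R 4.3.3 (lmFit, eBayes, two-sided), with Benjamini-Hochberg adjustment over 13003 genes and a threshold of 0.05; the tests were checked on simulated data. A group counted as under background when both its arrays were below that array's 75th percentile of negative controls; folds are then bounds against the background or the dim probe's own signal, whichever was higher. The number of arrays limits the precision. Named genes were called genes without overlap, up to 25 per direction, without predicted genes, called list members, and from each list up to 3 of smallest p and 3 of highest signal; the remaining genes named, such as other family members, Plk3, Nek5, Rdh16, Tat, Mme and the predicted genes, were chosen after their values were seen. The comparison, gene lists and rules were chosen with earlier results of these data known. Replicate numbers were not taken to pair the arrays. Deviations of same-numbered arrays correlated at -0.02 between the DSS groups and between -0.25 and 0.28 over all pairs of groups. Alternatives varied the filter, scaling, moderation, weights, covariates, arrays and threshold. Promoter windows are from RefSeq.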

Additional observations from a re-analysis of the deposited data

Results flagged for a closer look

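For 9 of the called genes the genotype difference with DSS minus that without DSS passed limma's interaction test, by these log2 amounts. Those with a positive value were Ccn3 at 7.19 (adjusted p 0.000107), Hsd3b3 at 5.53 (adjusted p 0.00013), Aadac at 5.10 and Hsd3b2 at 4.71 (both adjusted p 0.0002), Zan at 3.82 (adjusted p 0.000272) and Akr1c19 at 3.03 (adjusted p 0.0262). Those with a negative value were Hsd17b13 at -2.71 (adjusted p 0.0126), Arhgap6 at -2.60 (adjusted p 0.0119) and Ccl5 at -2.20 (adjusted p 0.0489). In Zan the WT arrays with DSS were under background. In Ccl5 every group except WT with DSS was under background, so its genotype difference without DSS lay between signals at that level. The size of both interactions depends on such signals.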

How the results depend on the processing

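Of the 46 genes, 17 passed under each of the 20 refits in which they were tested, and none changed direction in any. The count of 46 became 29 with quantile normalization (12 higher, 41.4%, against 32.6% in the fit reported), 70 with trended and robust moderation, 21 with array weights and 76 at an adjusted p under 0.1. Leaving out 1 array gave between 24 and 215 calls, between 5 and 26 interaction calls and between 5 and 14 calls on the chromosome of Sgms2; the lone array left in a group was then assumed to vary like the other groups. The interaction count of 10 became 6 with the exocrine pancreas mean as a covariate, 36 without both DSS arrays of replicate number 1 and 16 at an adjusted p under 0.1. Without those 2 arrays 67 genes passed, 53.7% of them higher, and 29 were among the 46. The replicate block, although the numbers were not taken to pair the arrays, gave 45 calls, 40 of them among the 46. The fit on the 4 DSS arrays alone gave 44 calls, 35 of them among the 46, and the interaction was not fitted there. Scaling moved the median of all genes only between -0.02 and 0.03, yet turned the sign of the small medians of the goblet, steroid, colonocyte and Hox lists. Over all alternatives 16 list medians changed sign. The cause was not tested in any of these. With 2 arrays a group, differences that missed the threshold may still be present.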

Other observations

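A few genes differed widely in mean without passing, because 1 array stood apart; they were chosen after their values were seen. The sialyltransferase gene St3gal4 read 12.97 and 12.59 in WT and 10.57 and 6.37 in SMS2 KO with DSS (limma difference -4.31 ± 1.31, adjusted p 0.296). The pentraxin gene Mptx1 read 17.97 and 15.55 in WT and 10.41 and 15.08 in KO (-4.01 ± 1.25, adjusted p 0.315). Ly6e, a GPI-anchored surface protein gene, read 17.18 and 17.17 in WT and 15.91 and 12.20 in KO (-3.12 ± 1.47, adjusted p 0.502). The intelectin gene Itln1 read 9.56 and 9.01 in WT and 7.88 and 14.11 in KO. The array apart was KO replicate 2 for St3gal4, Ly6e and Itln1 and KO replicate 1 for Mptx1. When all 14804 non-control rows were tested, 50 passed and 7 of these had no gene symbol.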
